A study of Mus musculus with 15 samples.

Results

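The expression of 10 genes that store or release triglyceride was followed through the aortas of mice given Aldo-salt, that is aldosterone in an osmotic minipump and salt in the drinking water. They are *Dgat1*, *Dgat2*, *Agpat2*, *Gpam*, *Lpl*, *Pnpla2*, *Lipe*, *Plin1*, *Cd36* and *Fabp4*, picked by gene symbol for their roles in this pathway. All 10 were found among the 24982 gene symbols of the count tables, and all 10 were among the 14121 genes that passed the filter on low counts. The mice were wild-type C57BL/6 males aged 10 months, 5 in each of 3 groups. Control mice had a sham operation, another group was orchiectomized to remove gonadal androgen, and the last group was orchiectomized and carried a pellet of DHT (dihydrotestosterone, an androgen that aromatase cannot turn into estrogen). After 2 weeks of recovery all 15 mice received aldosterone at 200 µg/kg per day with 0.9% NaCl and 0.2% KCl in the drinking water for 7 days, so no group shows an aorta without Aldo-salt. Whole aortas were cleaned in RNAlater and poly(A) RNA was sequenced, with 1 library per aorta and between 8268957 and 13816864 reads assigned to genes.

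Triglyceride is built on glycerol 3-phosphate by adding fatty acids one at a time. *Gpam* adds the first fatty acid, *Agpat2* the next, and *Dgat1* and *Dgat2* the last one. The product is kept in lipid droplets coated by perilipins such as *Plin1*, and *Pnpla2* (ATGL) and *Lipe* (hormone-sensitive lipase) take the fatty acids off again. *Lpl* releases fatty acids from circulating lipoproteins at the vessel wall, *Cd36* takes them up, and *Fabp4* carries them inside adipocytes, macrophages and endothelial cells. White and brown fat cells express all of these genes at high levels, and fat lies around the aorta.

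Each library is described in CPM, the reads of a gene scaled to a common library size with TMM factors. Differences are log2 fold changes from edgeR 4.0.16 with a quasi-likelihood test fitted to all 15 libraries, given with standard errors (SE) from the fit. A gene was called at an unadjusted P value under 0.01, the threshold of the study, and the P values printed beside fold changes are Benjamini-Hochberg adjusted over all genes tested. Errors of group means are SD with n = 5 mice.

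The 10 genes are annotated as protein-coding on the mouse genome build GRCm38 (mm10). *Agpat2* lies on chr2:26593057-26604417, minus strand, *Gpam* on chr19:55067268-55127238, minus strand, *Dgat1* on chr15:76502015-76511953, minus strand, and *Dgat2* on chr7:99153658-99182719, minus strand. *Plin1* lies on chr7:79720218-79732903, minus strand, *Pnpla2* on chr7:141455198-141460743, plus strand, and *Lipe* on chr7:25379527-25398710, minus strand. *Lpl* lies on chr8:68880491-68907448, plus strand, *Cd36* on chr5:17781690-17888801, minus strand, and *Fabp4* on chr3:10204088-10208576, minus strand. In the GENCODE M21 annotation *Agpat2* shares 64 of its 2130 exon bases (3%) with *Egfl7* on the opposite strand, and *Lipe* shares 918 of 5886 (15.6%) with the antisense transcript *4732471J01Rik*. Whether reads were counted by strand is not given in the sources used here, so reads in these stretches cannot be assigned to one gene of the pair with certainty.

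Promoter sequence from RefSeq (GRCm38.p6) was matched for 6 of the 10 genes. Windows of 3 genes are shown, those of the gene that was called (*Agpat2*), of the lipid droplet coat (*Plin1*) and of the lipase closest to *Agpat2* in its change with DHT (*Lipe*, one of 2 start sites). Each holds the 250 bases before the transcription start that RefSeq gives, read 5′ to 3′ on the gene's strand, with capitals at matches to the motifs searched.
Agpat2 promoter, chr2:26604418-26604667, minus strand: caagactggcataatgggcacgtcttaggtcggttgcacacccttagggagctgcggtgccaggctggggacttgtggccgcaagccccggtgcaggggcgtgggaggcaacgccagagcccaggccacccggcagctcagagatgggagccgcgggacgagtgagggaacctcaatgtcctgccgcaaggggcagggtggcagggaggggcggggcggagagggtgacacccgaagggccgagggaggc
Plin1 promoter, chr7:79732777-79733026, minus strand: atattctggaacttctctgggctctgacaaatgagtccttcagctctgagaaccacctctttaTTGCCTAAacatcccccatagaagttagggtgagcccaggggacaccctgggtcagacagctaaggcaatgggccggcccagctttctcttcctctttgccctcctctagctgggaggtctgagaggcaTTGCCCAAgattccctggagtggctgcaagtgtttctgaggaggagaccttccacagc
Lipe promoter, chr7:25395988-25396237, minus strand: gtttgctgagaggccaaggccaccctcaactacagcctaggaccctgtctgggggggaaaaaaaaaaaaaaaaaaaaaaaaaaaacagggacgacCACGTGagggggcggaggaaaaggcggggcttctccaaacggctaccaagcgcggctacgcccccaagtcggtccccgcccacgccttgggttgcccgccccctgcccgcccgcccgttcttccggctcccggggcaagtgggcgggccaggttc
The motifs were searched on both strands. They were the direct repeat bound by PPAR and RXR, its shorter unit AGGTCA, the palindrome bound by androgen and glucocorticoid receptors, the C/EBP core TTGCNNAA, the E-box CACGTG and the TATA box TATAAA, and any match to the direct repeat also holds the shorter unit. *Plin1* had the C/EBP core at 187 and 58 bases before its start, as TTGCCTAA and TTGCCCAA, and 9.56% of all 32851 windows hold this core. *Lipe* had an E-box at 155 bases, a motif of 6.02% of the windows. The windows of *Agpat2* and *Pnpla2* held none of the 6 motifs, and *Cd36* and *Gpam* each held 1 AGGTCA, found in 14% of the windows. None of the members' windows held the palindrome (0.00913% of all windows) or the direct repeat (0.0335%). These are matches of letters in short windows and no measure of binding. The RefSeq starts are not always those of GENCODE M21, whose *Plin1* covers 127 of the 250 bases of the window nearest to the start, the C/EBP core at 58 bases among them, and whose *Lipe* covers all 250, while the *Agpat2* window lies wholly before the gene.

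All 10 genes were well expressed, with mean levels in control mice from 129.6 ± 53.4 CPM for *Dgat1* to 1615 ± 538 CPM for *Fabp4*. Divided by the exon length of each gene, the control level was highest for *Pnpla2* (399.7 ± 185 CPM per kb), *Agpat2* (363 ± 195 CPM per kb) and *Fabp4* (359.8 ± 119.9 CPM per kb), which did not differ beyond their spread. *Cd36* and *Dgat2* followed, each at 222 CPM per kb (SD 85.7 and 99.2), then *Lpl* at 149 ± 63.7, *Plin1* at 91.0 ± 36.7 and *Lipe* at 80.6 ± 37.8 CPM per kb. *Gpam* (44.5 ± 17.3 CPM per kb) and *Dgat1* (42.4 ± 17.5 CPM per kb) were lowest and also within each other's spread. Per length, *Dgat2* thus stood above *Dgat1*, the other enzyme of the last step. The exon length counts every annotated exon, so a gene with long exons that are seldom used is placed too low. For *Fabp4* this length was 4489 bases, which is its whole annotated span with nothing left out as intron. For *Lpl* it was 10478 bases, the longest of the 10 genes. The places of *Fabp4* and *Lpl* in this order therefore depend on the length used. Whether *Fabp4* stood level with *Pnpla2* and *Agpat2* or above them cannot be told from these values.

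The 10 genes shared many of their high and low aortas within each group. Control mouse 4 had the lowest CPM of its group for all 10 genes, and orchiectomized mouse 4 the highest of its group for all 10. Orchiectomized mouse 3 was lowest for 7 genes, and among the mice given DHT mouse 1 was lowest for 8 and mouse 4 highest for 8. The order was not the same for every gene. In orchiectomized mice *Cd36* was lowest in mouse 1 (440 CPM) and stood at 683 CPM in mouse 2, where *Gpam* (146 CPM) and *Plin1* (161 CPM) were lowest. The highest control aorta held from 2.63 times (*Fabp4*) to 4.56 times (*Agpat2*) the CPM of the lowest one. The coefficient of variation was 33.3% to 53.7% in control mice, 15.9% to 34.9% in orchiectomized mice and 25.6% to 48.9% with DHT.

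**Figure D1:**
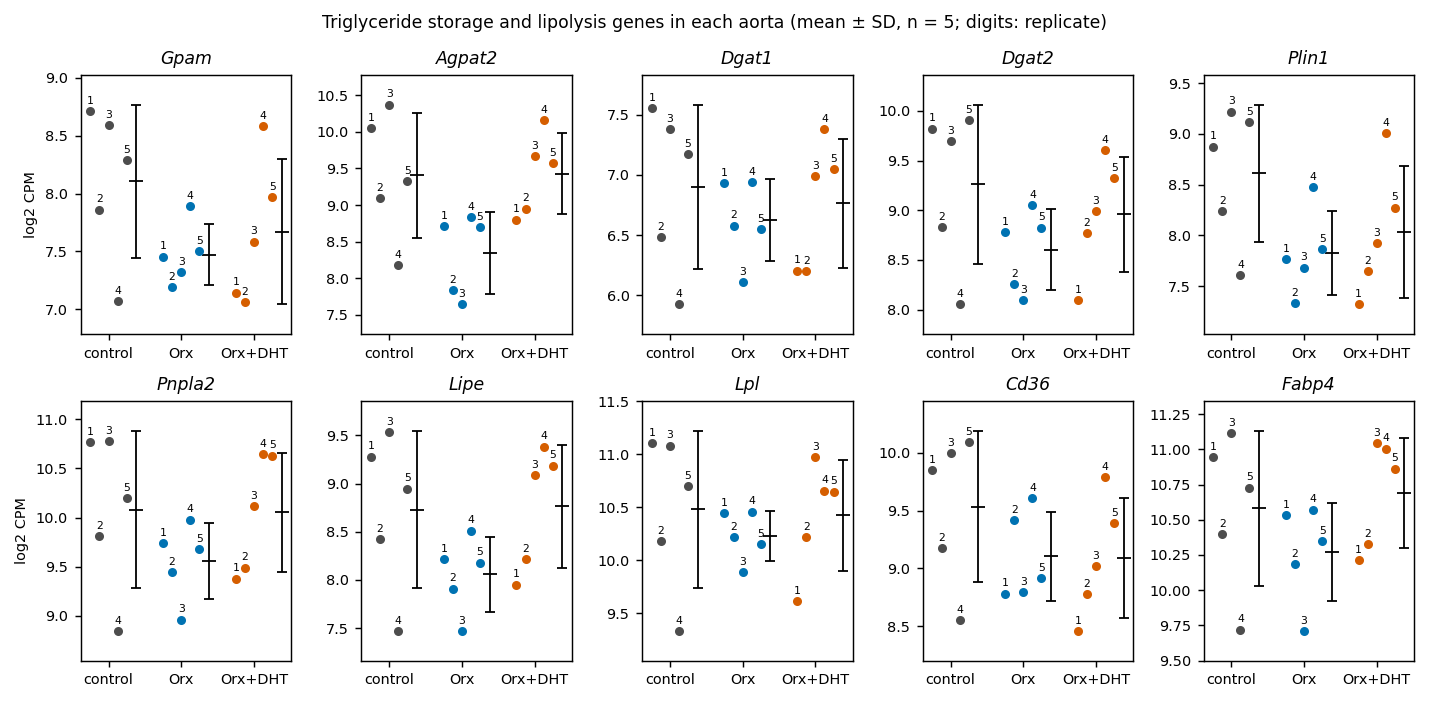
Log2 CPM of the 10 genes in each of the 15 aortas (points, with the replicate number as a digit) in control, orchiectomized (Orx) and DHT-treated orchiectomized (Orx+DHT) mice, with bars for the mean ± SD, n = 5. Control mouse 4 is lowest in its group in all 10 panels, and the groups overlap in every panel.

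The first comparison asked what loss of gonadal androgen did under Aldo-salt. All 10 genes had a lower fitted level in orchiectomized than in control mice, with log2 fold changes from -1.17 to -0.36 and a median of -0.68, where 43.2% of all genes tested were below 0 and their median was 0.04. One of the 10, *Agpat2*, passed the threshold and fell, while 3.22% of all genes tested were called and 1.13% were called lower. An unadjusted P value under 0.05 with a lower level was found for 5 of the 10 genes and for 4.59% of all genes. At an adjusted P value under 0.05 none passed, nor did any gene of the whole table (0%), and the adjusted P values of the 10 genes from edgeR lay between 0.301 and 0.634. The groups overlapped for each of the 10 genes, while 1.51% of all genes tested had groups that did not. When control mouse 4 was left out, 5 of the 10 genes passed the threshold and fell (*Agpat2*, *Dgat2*, *Gpam*, *Lipe* and *Plin1*), as did 3.40% of all genes tested in that fit. When orchiectomized mouse 4 was left out, 2 did (*Agpat2* and *Plin1*), as did 1.53% of all genes. Because the 10 genes share many of the same high and low aortas, they are not 10 separate observations of the groups.

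*Agpat2*, the acyltransferase that makes phosphatidic acid and whose loss causes congenital generalized lipodystrophy, changed most. Its levels in control mice 1 to 5 were 1059.5, 548, 1327, 291 and 642 CPM. In orchiectomized mice they were 418, 229, 199.5, 457 and 416 CPM. Orchiectomized mice 2 and 3 lay below the lowest control aorta, mouse 4 of the control group lay among the orchiectomized mice, and the other 4 controls lay above all of them. The log2 fold change was -1.17 (SE 0.38, 95% interval -1.98 to -0.36, edgeR adjusted P = 0.301), and an exact permutation test of the log2 CPM gave a difference of -1.06 with P = 0.0714. The call was lost in 6 of the 15 fits that each left out 1 library, those without control mouse 1 or 3 or without orchiectomized mouse 1, 2, 3 or 5. It was also lost when only the 2 groups were fitted and when the replicate number was added as a block.

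*Gpam*, the enzyme that starts the pathway, stood at 296 ± 115 CPM in control mice and 179.9 ± 34.7 CPM in orchiectomized mice, a log2 fold change of -0.72 (SE 0.31, edgeR adjusted P = 0.395). *Dgat2* measured 904, 455, 829, 265 and 961 CPM in control mice 1 to 5. In orchiectomized mice it measured 440.1, 305, 274, 532 and 453 CPM. Control mouse 4 was below all orchiectomized mice and control mouse 2 among them, while the other 3 controls lay above. The fitted difference for *Dgat2* was -0.77 (SE 0.34, edgeR adjusted P = 0.401). *Dgat1* showed the smaller difference of -0.37 (SE 0.30, edgeR adjusted P = 0.633), with 129.6 ± 53.4 CPM against 100.4 ± 22.5 CPM.

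The 2 enzymes of the last step were also compared within each aorta, as log2 of *Dgat2* over *Dgat1*, which cancels what both share. This ratio was 2.36 ± 0.23 in control mice (range 2.13 to 2.74) and 1.98 ± 0.23 in orchiectomized mice (range 1.68 to 2.28), a difference of -0.38. An exact two-sided permutation test gave P = 0.0238, or 0.143 adjusted over the 6 ratio tests made. *Dgat2* over *Pnpla2*, the last step of synthesis against the first of breakdown, differed by -0.14 (exact permutation P = 0.468).

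Of the genes of the lipid droplet and its breakdown, *Plin1*, the perilipin of fat cells, measured 469.6, 301, 596, 195 and 554 CPM in control mice 1 to 5. In orchiectomized mice it measured 218, 161, 205, 356 and 234 CPM. Only mouse 2 of the orchiectomized group lay below all controls, and control mouse 4 was again low. The log2 fold change of *Plin1* was -0.85 (SE 0.34, edgeR adjusted P = 0.367). *Lipe*, which acts on diacylglycerol, had 621, 343, 739.6, 177 and 493 CPM in control mice and 297, 240.0, 177, 365 and 289.6 CPM in orchiectomized mice. Controls 1, 3 and 5 lay above every orchiectomized aorta, and the fitted difference was -0.79 (SE 0.35, edgeR adjusted P = 0.401). *Pnpla2*, which removes the first fatty acid, was at 1207 ± 559 CPM against 775 ± 191 CPM, a difference of -0.64 (SE 0.35, edgeR adjusted P = 0.468).

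The genes that bring fatty acids into the cell and carry them there had fold changes between -0.50 and -0.36 on the log2 scale. *Cd36*, the fatty acid transporter, had a log2 fold change of -0.50 (SE 0.30, 95% interval -1.14 to 0.15, edgeR adjusted P = 0.517). *Lpl* measured 1564 ± 668 CPM in control and 1212 ± 192 CPM in orchiectomized mice, a log2 fold change of -0.37 (SE 0.30, 95% interval -1.01 to 0.28, edgeR adjusted P = 0.634). *Fabp4* had one of -0.36 (SE 0.25, 95% interval -0.90 to 0.18, edgeR adjusted P = 0.578). None of these 3 passed the threshold, and their intervals include 0.

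**Figure D2:**
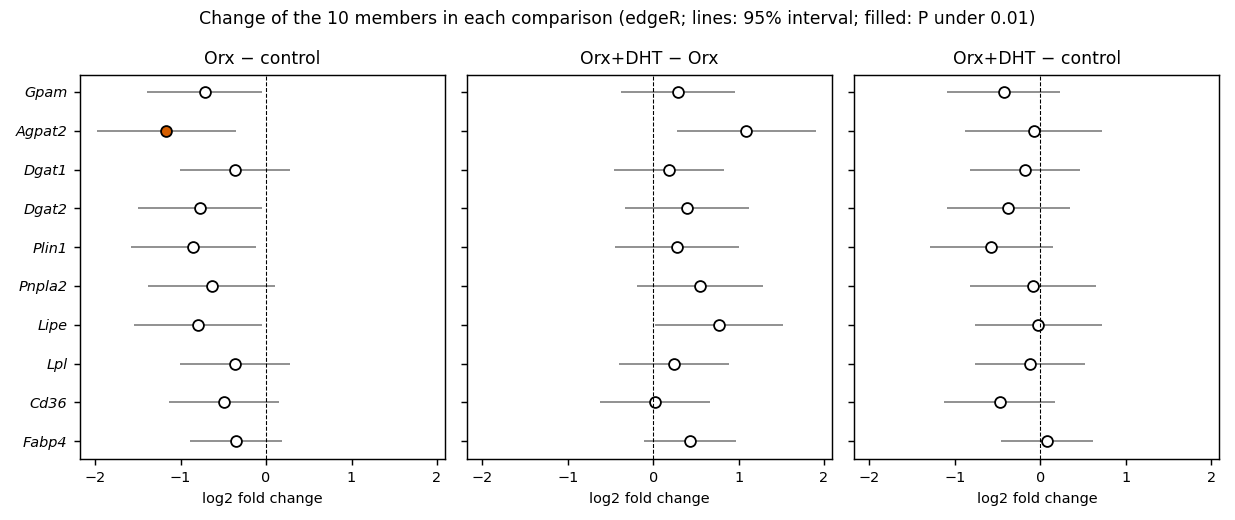
Log2 fold changes of the 10 genes (points) with 95% intervals (lines) from edgeR in the 3 comparisons, filled where the unadjusted P value was under 0.01. All 10 points lie below 0 for orchiectomized minus control mice and above 0 for DHT minus no DHT, and the only filled point is *Agpat2* at -1.17.

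The second comparison asked what DHT did in orchiectomized mice. All 10 genes had a higher fitted level with DHT, with log2 fold changes from 0.02 for *Cd36* to 1.09 for *Agpat2* and a median of 0.34, where 46.7% of all genes tested lay above 0 and their median was -0.02. Without DHT mouse 4 only 7 of the 10 lay above 0, with *Gpam*, *Plin1* and *Cd36* below. In the library of that mouse 14.4% of reads fell in no gene, against 6.26% to 10.4% in the other 14, and the part of this in the result was not tested. By the edgeR threshold 0 of the 10 were called, against 9.72% of all genes in either direction and 2.46% called higher. With the same filter, DESeq2 called 1, *Agpat2*, and 12.1% of all genes. An unadjusted P value under 0.05 with a higher level was found for *Agpat2* and *Lipe*, 2 of the 10, and for 7.32% of all genes. At an adjusted P value under 0.05 it was 0 of the 10 against 4.72%, and the groups overlapped for all 10 while they did not for 6.43% of all genes tested. This comparison and the first share the orchiectomized mice, so a low or high aorta among them moves both in opposite directions.

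*Agpat2* with DHT measured 446, 495, 813, 1144 and 763 CPM in mice 1 to 5. Mice 2 to 5 lay above the highest orchiectomized aorta without DHT (457 CPM), and mouse 1 lay just under it. The log2 fold change was 1.09 (SE 0.38, 95% interval 0.28 to 1.90, edgeR adjusted P = 0.111). An exact permutation test of its log2 CPM gave a difference of 1.09 with P = 0.0159, where 0.0079 is the smallest P value that 5 against 5 mice allow. *Agpat2* passed the edgeR threshold in 5 of the 15 fits that left out 1 library, those without control mouse 3 or 4, orchiectomized mouse 4 or DHT mouse 1 or 2. *Lipe* with DHT measured 247, 297, 545, 668 and 582 CPM, so that mice 3 to 5 lay above all orchiectomized mice without DHT and mice 1 and 2 among them. Its difference was 0.77 (SE 0.35, 95% interval 0.02 to 1.52, edgeR adjusted P = 0.222).

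The other lipase, *Pnpla2*, was at 1138 ± 452 CPM with DHT, a log2 fold change of 0.55 (SE 0.35, edgeR adjusted P = 0.382), and 3 of 5 mice given DHT lay above the orchiectomized range. *Fabp4* stood at 1700.4 ± 436 CPM against 1262 ± 277 CPM, a difference of 0.43 (SE 0.25, edgeR adjusted P = 0.347). *Dgat2* differed by 0.40 (SE 0.34, edgeR adjusted P = 0.539), and its level in 1 mouse with DHT, at 273 CPM, lay under the whole orchiectomized group. The remaining genes were closer to 0, with *Gpam* at 0.29 (SE 0.31), *Plin1* at 0.28 (SE 0.34), *Lpl* at 0.25 (SE 0.30), *Dgat1* at 0.19 (SE 0.30) and *Cd36* at 0.02 (SE 0.30, 95% interval -0.62 to 0.66). *Plin1* with DHT ranged from 159.6 to 514 CPM, and its difference was -0.0415 when mouse 4, the highest aorta of the DHT group, was left out. *Dgat2* over *Dgat1* differed by 0.21 (exact permutation P = 0.206) and *Dgat2* over *Pnpla2* by -0.14 (exact permutation P = 0.302).

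Mice given DHT were also compared with control mice, 2 groups that both had androgen. None of the 10 genes was called (3.53% of all genes tested), and DESeq2 called 0 as well (4.87% of all genes). By edgeR 0 of the 10 had an unadjusted P value under 0.05, where 6.52% of all genes were lower and 5.31% higher at that level. The groups overlapped for all 10 genes (3.58% of all genes did not), and 9 of the 10 lay below 0, as did 50.5% of all genes. The 9 became 5 without control mouse 1 or 3 or DHT mouse 1, and 6 without DHT mouse 2. They became 10 without control mouse 4 or DHT mouse 3 or 4. *Agpat2* differed by -0.08 (SE 0.38, 95% interval -0.88 to 0.72), *Lipe* by -0.02 (SE 0.35, 95% interval -0.77 to 0.73), *Pnpla2* by -0.09 (SE 0.34, 95% interval -0.82 to 0.65) and *Fabp4* by 0.07 (SE 0.25). The lowest values were those of *Plin1* at -0.57 (SE 0.34, 95% interval -1.30 to 0.16, edgeR adjusted P = 0.532), *Cd36* at -0.48 (SE 0.30, edgeR adjusted P = 0.555) and *Gpam* at -0.43 (SE 0.31, edgeR adjusted P = 0.607). These intervals are wide, so they do not show that the 2 groups were alike.

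A whole aorta can carry more or less fat, and in bulk tissue fewer fat cells and less RNA per fat cell cannot be told apart. The genes listed as white fat cell markers were present in all 15 aortas, and whether brown fat cells also express them was not tested here. The summed level of the 9 tested markers ranged from 2128 to 4621 CPM in control mice, from 2653 to 4504 CPM in orchiectomized mice and from 1771 to 3696 CPM with DHT. *Adipoq* (adiponectin), the defining marker, measured 379.9 ± 126 CPM, 354 ± 89.3 CPM and 299.8 ± 70.5 CPM in the 3 groups, a log2 fold change of -0.10 (SE 0.25, edgeR adjusted P = 0.9) in orchiectomized against control mice and of -0.24 (SE 0.25, edgeR adjusted P = 0.614) with DHT. Of the 9 markers 6 lay below 0 after orchiectomy and 3 above, 3 were lower at an unadjusted P value under 0.05, and 1 of these was called, the hormone leptin (*Lep*, -1.85, SE 0.52, edgeR adjusted P = 0.268). The call was lost without control mouse 5, the highest for *Lep* (-1.38, SE 0.48, edgeR adjusted P = 0.422). With DHT edgeR called 0 of the 9, and 1 had an unadjusted P value under 0.05. The mean log2 CPM over the 9 markers, here the adipocyte level, was 7.64 ± 0.50, 7.28 ± 0.37 and 7.33 ± 0.38 in the 3 groups. Within the groups it was lowest in control mouse 4, orchiectomized mouse 3 and DHT mouse 1.

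Brown fat markers were present as well. *Ucp1*, the uncoupling protein that defines them, was at 1799.6 ± 927 CPM in control mice, 909 ± 331 CPM in orchiectomized mice and 1606 ± 835 CPM with DHT, with log2 fold changes of -0.98 (SE 0.42, edgeR adjusted P = 0.381) and 0.82 (SE 0.42, edgeR adjusted P = 0.274). All 7 tested brown fat markers lay below 0 after orchiectomy with 1 called, *Elovl3* (-1.49, SE 0.49, edgeR adjusted P = 0.301), and their sum ranged from 1337 to 4649, from 1157 to 2317 and from 1687 to 4504 CPM. Without orchiectomized mouse 2 it was 6 of the 7 and 0 were called by edgeR. With DHT 5 of the 7 lay above 0 and 2 below, and the 1 called was lower, *Dio2* (deiodinase), at -0.97 against orchiectomized mice (SE 0.28, edgeR adjusted P = 0.0642) and -1.40 against control mice (SE 0.29, edgeR adjusted P = 0.0548). *Elovl3* and *Dio2* were named after their values were seen. The mean log2 CPM over the 7 markers was 7.59 ± 0.56, 7.06 ± 0.31 and 7.39 ± 0.48 in the 3 groups, so it was lower by 0.53 after orchiectomy and higher by 0.33 with DHT, or by 0.21 without orchiectomized mouse 2. The part of brown and white fat in the differences of the 10 genes was not tested.

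Each of the 10 genes was therefore also expressed relative to the adipocyte level of the same aorta, as log2 CPM minus that level. After orchiectomy the adipocyte level itself differed by -0.36, and by -0.19 when *Lep* was left out of it. On this scale none of the 10 genes had groups that did not overlap (0.857% of all genes tested). The difference of *Agpat2* was -0.70 on this scale, *Plin1* -0.43, *Lipe* -0.31, *Dgat2* -0.30, *Gpam* -0.27, *Pnpla2* -0.16 and *Cd36* -0.07, while *Lpl*, *Dgat1* and *Fabp4* lay at 0.11, 0.08 and 0.05. With DHT the adipocyte level differed by 0.05, or by -0.05 with *Lep* left out, with 5 of its 9 markers above 0 and 4 below. Relative to this level 1 of the 10 genes, *Agpat2*, was higher in every DHT-treated aorta than in every orchiectomized one, as were 0.602% of all genes tested. Relative to the adipocyte level *Agpat2* measured 1.58, 0.48, 0.89, 1.10 and 1.30 in orchiectomized mice and 2.13, 1.63, 2.05, 2.63 and 2.07 with DHT. Orchiectomized mouse 1 (1.58) and DHT mouse 2 (1.63) were the closest of the 2 groups, whose means differed by 1.03. *Lipe* followed at 0.66, *Pnpla2* at 0.44, *Fabp4* at 0.37 and *Dgat2* at 0.30, all with overlapping groups. Relative to *Adipoq* alone 3 of the 10 genes (*Dgat2*, *Agpat2* and *Lipe*) were higher in every DHT-treated aorta, as were 3.11% of all genes tested, and after orchiectomy 1 (*Plin1*) was lower in every aorta, as were 0.899% of all genes. Relative to the brown fat markers *Agpat2* was again the 1 gene higher in every DHT-treated aorta (0.76, and 0.418% of all genes), while the other 9 ranged from -0.34 (*Cd36*) to 0.38 (*Lipe*) with DHT and all 10 from -0.53 (*Agpat2*) to 0.28 (*Lpl*) after orchiectomy. Between DHT-treated and control mice none of the 10 genes had groups that did not overlap relative to the adipocyte level (1.07% of all genes tested).

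**Figure D3:**
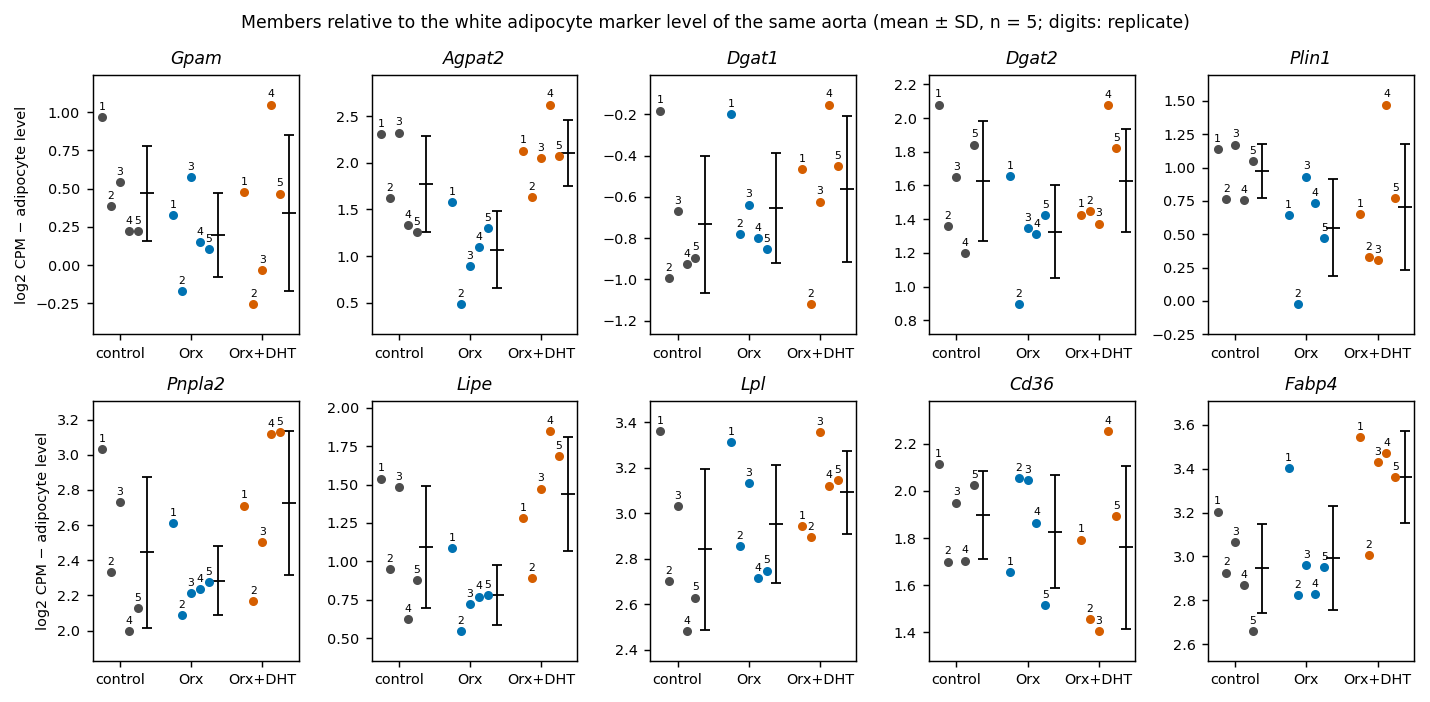
Log2 CPM of each of the 10 genes minus the mean log2 CPM of 9 white fat cell markers in the same aorta, for the 15 aortas (points, with the replicate number as a digit) and as mean ± SD, n = 5. *Agpat2* is the only panel in which all DHT-treated aortas lie above all orchiectomized ones, with means of 2.10 and 1.07.

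Other cell types were measured beside the fat cells. Smooth muscle, the main cell type of the aortic wall, was abundant in all aortas, with *Myh11* (smooth muscle myosin) at 4787 ± 903, 4358 ± 1447 and 6275 ± 597 CPM and a summed level of its 6 markers from 9920 to 23380 CPM. After orchiectomy all 6 lay below 0, with a median of -0.09 and 0 at an unadjusted P value under 0.05 by edgeR, and without orchiectomized mouse 2 only 2 of the 6 lay below 0. With DHT all 6 lay above 0, as the 10 genes did, with a median of 0.43, 5 at an unadjusted P value under 0.05 and 0 called by edgeR (5 above 0 without orchiectomized mouse 2), and *Myh11* differed by 0.53 (SE 0.22, edgeR adjusted P = 0.186). The endothelial marker *Pecam1* differed by 0.05 (SE 0.13) after orchiectomy and fell with DHT by 0.53 on the log2 scale (SE 0.13, edgeR adjusted P = 0.0323), and of the 8 endothelial markers 6 lay above 0 after orchiectomy with 0 called (0 with P under 0.05), and 6 lay below 0 with DHT with 2 called lower, *Pecam1* and the receptor *Tek* (-0.89, SE 0.17, edgeR adjusted P = 0.0153). Without orchiectomized mouse 2 the endothelial markers were 3 above and 5 below 0 after orchiectomy, and their mean turned from 0.06 to -0.07. *Gpihbp1*, which holds LPL on capillary endothelium, differed by 0.18 (SE 0.40) and -0.01 (SE 0.40). Macrophages also express *Lpl*, *Cd36* and *Fabp4*, and all 7 of their markers lay above 0 after orchiectomy and below 0 with DHT, the opposite of the 10 genes, with mean differences of 0.29 and -0.71. By edgeR 0 of the 7 were called after orchiectomy (1 with P under 0.05) and 3 were called lower with DHT, or 1 without orchiectomized mouse 2. *Cd68* stood at 15.2 ± 5.37, 17.6 ± 5.87 and 10.6 ± 2.51 CPM. Striated muscle RNA was uneven, with summed marker levels from 20.7 to 3143 CPM among orchiectomized mice alone and *Ckm* between 2.27 and 110.1 CPM there, the upper values both from orchiectomized mouse 2. This aorta had a mean log2 CPM of 5.59 for the striated muscle markers, where the other 4 had 0.88 to 3.69, and of 9.61 for the smooth muscle markers, where the other 4 had 10.3 to 10.7. The mean log2 CPM of its 7 markers was 4.23 ± 1.08 in control mice, 2.72 ± 1.91 in orchiectomized mice and 4.98 ± 0.68 with DHT, so that its mean differed by -1.51 after orchiectomy and 2.26 with DHT, and by -2.23 and 2.98 without orchiectomized mouse 2. Of the 7, 3 lay above 0 and 4 below after orchiectomy and 4 above and 3 below with DHT, and *Ckm* differed by 0.10 and -0.09. Without orchiectomized mouse 2 all 7 lay below 0 and then above 0, with 2 called lower and 4 called higher, and *Ckm* was called in both, at -2.61 (SE 0.64, edgeR adjusted P = 0.43) and 2.61 (SE 0.64, edgeR adjusted P = 0.0439). The muscle myosin *Myh4* was called lower after orchiectomy (-4.66, SE 1.48, edgeR adjusted P = 0.297), and the muscle actin *Acta1* (3.33, SE 0.88, edgeR adjusted P = 0.0436) and the myosin *Myh1* (3.69, SE 0.95, edgeR adjusted P = 0.0401) were called higher with DHT, 3 genes named after their values were seen. Without the same mouse the smooth muscle mean differed by 0.01 after orchiectomy in place of -0.18 and by 0.27 with DHT in place of 0.46. The part of these cells in the 10 genes' differences was not tested.

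Other genes of the pathway were described from a list of 47 genes in 5 roles, of which 46 were tested. After orchiectomy 0 were called higher and 3 lower, where 1.13% of all genes tested were called lower, and 35 of the 46 lay below 0, where 43.2% of all genes did. Their median was -0.40. *Pnpla3*, a lipid droplet protein related to *Pnpla2*, fell furthest. It measured 168 ± 65.3 CPM in control mice and 52.6 ± 20.9 CPM in orchiectomized mice, and every orchiectomized aorta (at most 81.3 CPM) lay below every control (at least 101 CPM). Its log2 fold change was -1.68 (SE 0.33, edgeR adjusted P = 0.131). *Plin2*, the perilipin found in most cell types, fell by 1.33 on the log2 scale (SE 0.38, edgeR adjusted P = 0.28), and *Lpin1*, the phosphatase that acts between *Agpat2* and the *Dgat* enzymes, fell by 1.16 (SE 0.33, edgeR adjusted P = 0.269). *Abhd5*, the coactivator of ATGL, differed by -0.40 (SE 0.20, edgeR adjusted P = 0.43).

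By role, 1 of 11 genes of glycerolipid synthesis was called lower after orchiectomy (*Lpin1*), 0 of 12 for the supply and activation of glycerol and fatty acids, 0 of 5 partners of LPL, 1 of 9 lipolysis genes (*Pnpla3*) and 1 of 9 droplet proteins (*Plin2*). At an unadjusted P value under 0.05, 6 of the 9 lipolysis genes and 4 of the 9 droplet proteins were lower, as were 4.59% of all genes tested. So were 3 of the 11 genes of glycerolipid synthesis and 4 of the 12 of supply and activation. None of the 5 LPL partners was lower, and 1 synthesis gene was higher, as were 1044 of the 14121 genes tested. Differences between the roles were not tested. Without control mouse 4 the number of the 46 genes called was 17 in place of 3, where 5.10% of all genes tested were called in that fit. It was 6 without orchiectomized mouse 4 (3.45% of all genes), 5 without control mouse 2 (2.63%) or DHT mouse 4 (3.62%), and 1 without control mouse 3 (1.89%), and DESeq2 called 9 in all libraries (4.39%).

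With DHT 3 of the 46 genes were called higher and 1 lower, where 2.46% of all genes tested were called higher and 7.27% lower. Without control mouse 4 the calls numbered 7 in place of 4 (9.85% of all genes were called in that fit), as they did with DESeq2 in all libraries. *Plin4*, a perilipin of nascent droplets in fat cells, measured 313, 196, 394, 345 and 371 CPM in orchiectomized mice and 491, 500.4, 486, 584 and 532 CPM with DHT. The groups did not overlap, and *Plin4* rose by 0.68 (SE 0.15, edgeR adjusted P = 0.0245). Its control mice ranged from 398 to 483 CPM, above all orchiectomized mice, with a difference of -0.41 that missed the threshold (SE 0.15, edgeR adjusted P = 0.342). *Plin2* rose by 1.32 (SE 0.38, edgeR adjusted P = 0.0624), from 151 to 331 CPM without DHT and 369.7 to 967 CPM with it. *Pnpla3* rose by 1.17 (SE 0.32, edgeR adjusted P = 0.0516), to 118 ± 42.0 CPM.

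*Acsl4*, which activates arachidonic acid, went the other way and was steady among mice. It measured 41.9 ± 3.21 CPM in control mice, 42.1 ± 6.25 CPM in orchiectomized mice and 32.6 ± 1.09 CPM with DHT, and every DHT-treated aorta was below every other aorta. It fell with DHT by 0.37 on the log2 scale against orchiectomized mice (SE 0.10, edgeR adjusted P = 0.0412) and by 0.36 against control mice (SE 0.10, edgeR adjusted P = 0.166), where it was the only 1 of the 46 genes called. Without DHT mouse 4 that number was 4 (4.44% of all genes), and without control mouse 4 it was 2 (3.30%).

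**Figure D4:**
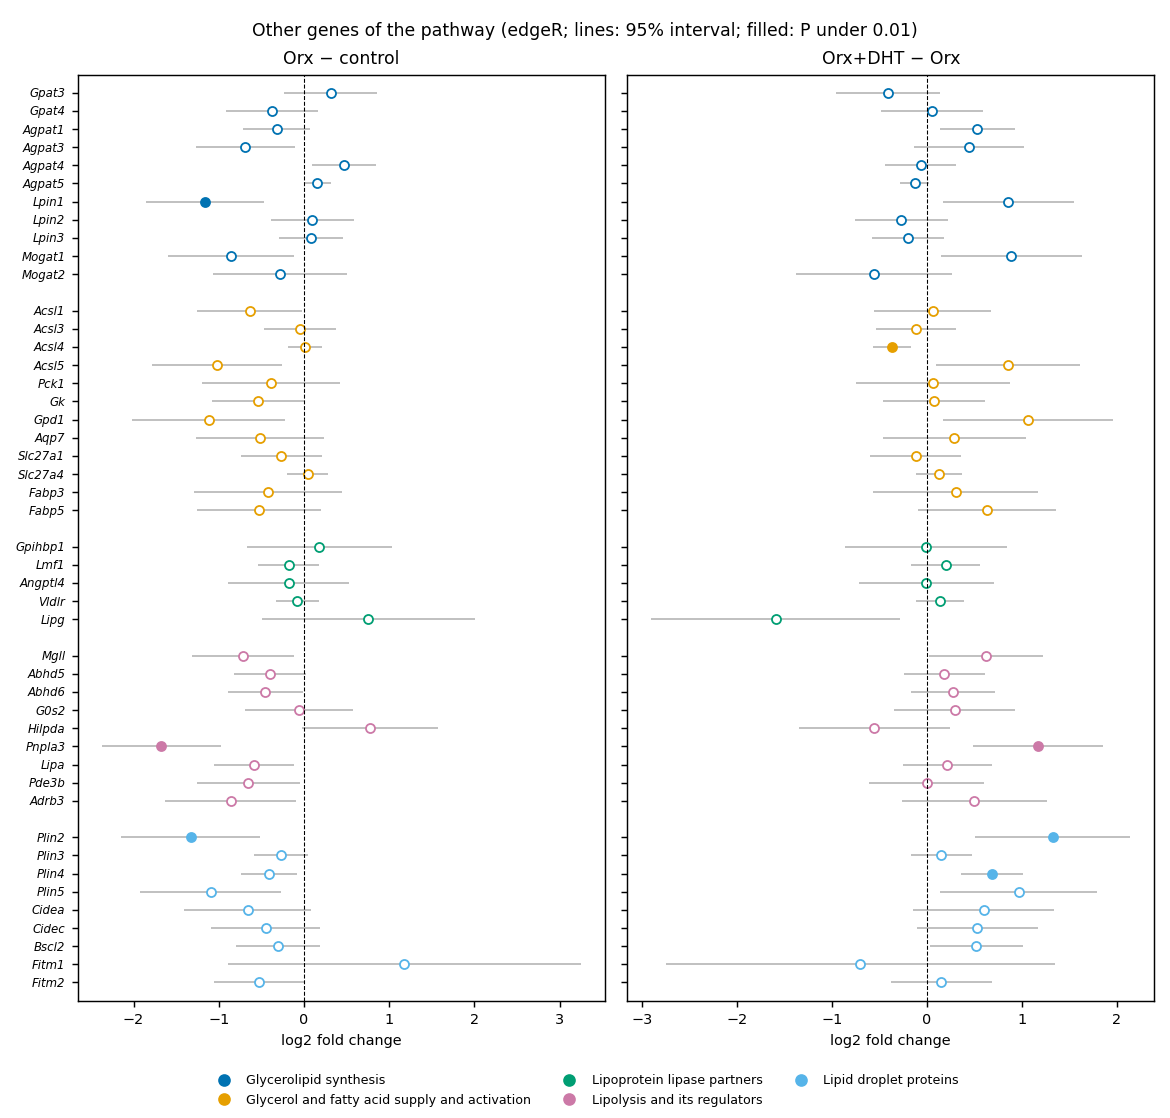
Log2 fold changes (points) with 95% intervals (lines) from edgeR for the 46 other genes of the pathway tested, coloured by role and filled where the unadjusted P value was under 0.01, for orchiectomized minus control and DHT-treated minus untreated orchiectomized mice. *Pnpla3* and *Plin2* are filled in both panels, on opposite sides of 0.

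Among all other genes tested, 5 were picked whose level followed the 10 most closely from aorta to aorta. The mean of the standardised log2 CPM of the 10 genes was set against every other gene tested over the 15 libraries, and the highest Pearson r were those of *Ghitm* (0.991), *Uqcrc1* (0.990), *Acadvl* (0.989), *Dlst* (0.987) and *Decr1* (0.987), with Spearman rho from 0.979 to 0.989. Without the 2 libraries farthest from the median r was 0.981 to 0.987. *Ghitm* is an inner membrane protein, *Uqcrc1* a subunit of respiratory complex III, *Dlst* an enzyme of the citric acid cycle, and *Acadvl* and *Decr1* act in fatty acid oxidation. The 10 genes themselves had r from 0.871 (*Cd36*) to 0.977 (*Pnpla2*) with the mean that includes them. These 15 points share their group structure and the low and high aortas described above. The 5 genes had log2 fold changes from -0.72 (*Acadvl*, SE 0.33) to -0.57 (*Dlst*, SE 0.31) after orchiectomy. With DHT their fold changes ran from 0.31 (*Dlst*) to 0.47 (*Acadvl*). The 5 were picked for following the 10 genes over these same libraries, so the direction of their changes comes with the choice. It is no separate result. By edgeR 0 of the 5 were called. Orchiectomized mice were lower for *Ghitm* and *Acadvl* with unadjusted P below 0.05, as they were for 4.59% of all genes tested. The choice of the 5 bears on that number as well.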

How the data were processed

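RNA-Seq was done on whole aortas of 15 mice, 5 per group, with groups and replicate numbers taken from the labels. Each file the authors deposited holds unnormalized read counts, 1 whole number for each gene symbol. The submitters' processing notes name STAR, Cufflinks, DESeq2 and mm10. The counting program and its strand setting are not given in the sources used here. Reads assigned to no gene (6.26% to 14.4%) or to several (1.34% to 1.97%) were left out.

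The counts were fitted with edgeR 4.0.16 (R 4.3.3), using filterByExpr (minimum count 10, minimum total 15), TMM, and 1 quasi-likelihood model with the 3 groups. The biological coefficient of variation was 0.297. Log2 CPM used a prior count of 3. The SE is the log2 fold change divided by the square root of F. Ratios were tested by exact two-sided permutation. Alternatives were DESeq2 1.42.0, scaling by RLE, no filter beyond 1 count in any library, only the 2 groups compared, the replicate number as a block, the adjusted threshold of 0.05 and leaving out each library. No 2 of the 15 libraries held identical values. Positions are from GENCODE M21, and figures were drawn with Python 3.11.15.

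The genes named were all 10 members, every gene of the wider list that was called (with *Plin2*, *Gpihbp1* and *Abhd5* in any case), the defining marker of each cell type and *Lep*, and the 5 genes most like the members over the libraries. *Tek*, *Elovl3*, *Dio2*, *Myh4*, *Acta1*, *Myh1*, *Myh6* and *Mb*, and the genes in the list of aortas that stood apart, fall outside this rule and were named after their values were seen. *Adrb3*, *Cidea* and *Gpihbp1* stand both in the wider list and in a marker list. The white fat list holds 10 genes, of which *Trarg1* was not matched, and *Cideb* and *Cpt1b* did not pass the filter. The members and lists were chosen with earlier results of these data known.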

Additional observations from a re-analysis of the deposited data

Results flagged for a closer look

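Among the log2 CPM of the 10 genes, the wider list and the cell type markers, the mean levels of the marker lists and the 2 ratios, 315 groups of 5 aortas were checked for a single library beyond Dixon's 95% limit, and 8 held one, where chance gives about 1 in 20. None of the 8 was one of the 10 genes, a ratio or a mean level of a marker list. Orchiectomized mouse 2 stood above the rest of its group for *Lpin2* (5.257, the next at 4.074), *Lipg* (3.748, the next at 1.255) and *Fitm1* (3.477, the next at 0.007846). Orchiectomized mouse 3 stood below the rest for *Fabp5* (4.813, the next at 5.757), *Bscl2* (6.473, the next at 7.034) and *Slc2a4* (6.456, the next at 7.215). Control mouse 5 was high for *Lep* (5.047, the next at 3.65), and DHT mouse 2 low for *Ckm* (3.212, the next at 4.595).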

How the results depend on the processing

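The members called in orchiectomized against control mice numbered 1 (*Agpat2*) and became 0 with only the 2 groups compared, with the replicate block and at an adjusted P value under 0.05. The number was 0 to 5 when 1 library was left out, 5 without control replicate 4 (*Agpat2*, *Dgat2*, *Gpam*, *Lipe* and *Plin1*), 2 without orchiectomized replicate 4, and 0 without control replicate 1 or 3 or orchiectomized replicate 1, 2, 3 or 5. For DHT against orchiectomy the 0 members became 1 (*Agpat2*) with DESeq2, with all genes with at least 1 count and with only the 2 groups compared, and 0 to 1 with 1 library left out (1 without control replicate 3 or 4, orchiectomized replicate 4 or DHT replicate 1 or 2). Of the wider list, the 3 genes called after orchiectomy became 9 with DESeq2, 5 with all genes with at least 1 count, 0 at the adjusted threshold and 9 without the lowest library of each group (control replicate 4 and orchiectomized replicate 3, chosen after seeing the data), and with 1 library left out were 1 to 17, the fewest without control replicate 3 and the most without control replicate 4. The 4 called with DHT became 7 with DESeq2, 7 with only the 2 groups compared and 2 at the adjusted threshold, and ranged from 3 to 7 (7 without control replicate 4). The 1 called in DHT against control became 0 at the adjusted threshold and ranged from 1 to 4 (4 without DHT replicate 4). The share of all genes called moved with the setting as well. For DHT against orchiectomy it was 12.1% with DESeq2 in place of 9.72%. After orchiectomy it was 5.10% without control replicate 4 in place of 3.22%. These counts describe the settings and alone are no result about the members or the list. Relative to *Adipoq* alone, 1 member (*Plin1*, lower) did not overlap after orchiectomy in place of 0, and 3 (*Dgat2*, *Agpat2* and *Lipe*, higher) with DHT in place of 1. With *Lep* left out of the adipocyte level, chosen after seeing the data, these numbers were 1 (*Plin1*, lower) and 2 (*Agpat2* and *Lipe*, higher), and relative to the brown fat markers, also chosen then, 0 and 1. The share of all genes on the scale without *Lep* is not given here, so the numbers on that scale cannot be set against it. The cause of these differences was not tested.

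The log2 fold change of *Agpat2* ranged from -1.39 to -0.89 after orchiectomy and from 0.87 to 1.25 with DHT when 1 library was left out. Some values changed sign. *Cd36* in DHT against orchiectomy became -0.0198 with the replicate block and -0.0142 as a difference of mean log2 CPM, and in DHT against control *Agpat2* became 0.0248 and *Lipe* 0.0348 on that scale. With 1 library left out, the DHT effect ranged from -0.19 to 0.20 for *Cd36*, from -0.00391 to 0.44 for *Gpam* and from -0.0415 to 0.51 for *Plin1* (all lowest without DHT replicate 4). DHT against control ranged from -0.30 to 0.21 for *Agpat2*, from -0.32 to 0.0356 for *Lpl*, from -0.29 to 0.0896 for *Pnpla2*, from -0.23 to 0.20 for *Lipe* and from -0.0847 to 0.21 for *Fabp4*. The direction of the log2 fold change after orchiectomy was kept for all 10 members in every alternative fit and as a difference of mean log2 CPM. Relative to the adipocyte level it was not, with *Lpl* (0.11), *Dgat1* (0.08) and *Fabp4* (0.05) above 0. RLE size factors changed no count of members called. The replicate numbers share no source in the labels, and same-numbered deviations correlated from -0.466 to 0.463, so the pairing was not used, and the block changed no other call of a member.

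With 5 mice a group and a coefficient of variation up to 53.7%, the 95% intervals of the members span more than 1 on the log2 scale. P values set the difference between groups against the spread among aortas of a group. The edgeR fit took this spread from all 15 aortas, and the permutation tests used only the 2 groups compared.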

Other observations

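Control mouse 4 was the lowest of all 15 aortas for 5 of the 10 genes, orchiectomized mouse 3 for 2, and DHT mice 1 and 2 for 2 and 1. The highest of all 15 was always a control aorta, mouse 3 for 5 genes, mouse 1 for 3 and mouse 5 for 2. No orchiectomized or DHT-treated aorta was highest for any of the 10.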
